A study of Arabidopsis thaliana with 6 samples.

Results

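Transcript levels were described in untreated Arabidopsis thaliana seedlings that carry 35S::CUC2-GR, a transgene in which the constitutive 35S promoter of a plant virus drives the transcription factor CUP-SHAPED COTYLEDON 2 (CUC2) fused to the hormone-binding domain of a glucocorticoid receptor (GR). The group comprised the 3 libraries that the labels mark as untreated, out of 6 in the series, and all 33602 gene models counted in each library were kept. The tissue was seedling at Boyes stage 1.02, grown in vitro at 21 °C under the day length entered as LD, and no treatment was given. The other 3 libraries of the series, from dexamethasone-treated seedlings of the same genotype, were not compared here. All 3 libraries share the transgene, and neither a line without it nor a mock-treated group is among the labels, so the levels belong to this transgenic line and not to wild-type seedlings. Each library was made from 10 µg of RNA by poly(A) selection and sequenced as read pairs without strand information, and the design text calls the 3 libraries biological replicates.

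CUC2 and its relatives CUC1 and CUC3 are NAC-domain transcription factors that mark the boundaries between organs and shape the margin of the leaf, and the microRNA miR164 cleaves CUC1 and CUC2 transcripts. In a GR fusion the protein stays inactive in the cytoplasm until a steroid such as dexamethasone is added, whereas the transcript is made at all times. A young seedling holds green cotyledons and first leaves, a hypocotyl, a growing root and a small shoot apex, and its RNA is a mixture of all of them. In such bulk RNA fewer cells of a type and less RNA per cell cannot be told apart.

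The 3 libraries held 29481253, 28522853 and 28378873 counted read pairs, between 95.3% and 95.4% of the pairs that were parsed. Levels are given as CPM, the read pairs of a gene model per 1000000 counted pairs of its library, and levels of different genes are compared as CPM per kb of gene model length. An order by CPM alone is one of read pairs and not of level, since long transcripts give more pairs. Of the 33602 gene models, 21944 (65.3%) had more than 3 pairs in each library and are counted as detected here. A further 4249 had some pairs but not that many, and 7409 had no pair in any library. A count of 0 in a library allows a level of up to 0.102 to 0.106 CPM, and this limit, like the intervals given further on, covers counting error only. The detected models had a median of 11.3 CPM per kb, with 5% of them under 0.467 and 5% over 119, and they spanned 5.42 orders of magnitude. A total of 1606 gene models held 50% of all pairs, and 320 held 25%. The 10 most abundant models held 3.97%, 3.91% and 3.74% of the pairs in replicates 1, 2 and 3, and the highest one alone held 0.718% on average. In the order by CPM, 19 models were among the top 20 of every library and 91 among the top 100.

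The highest transcripts included those of genes known from green tissue and from root, beside cell wall, water channel and housekeeping genes. CAB1, a chlorophyll-binding protein of the light-harvesting antenna on chromosome 1 (10477885 to 10479114 of the TAIR10.1 assembly, plus strand), had the highest level on both scales. It stood at 6745, 7886 and 6901 CPM in replicates 1, 2 and 3, or 6875 ± 593 CPM per kb (SD, n = 3). The exact 95% Clopper-Pearson interval of its share was 7854 to 7919 CPM in replicate 2 and 6715 to 6774 CPM in replicate 1, so replicate 2 was higher by more than counting error. GRP7, a glycine-rich RNA-binding protein that follows the circadian clock, came next per kb at 3637 ± 172 CPM per kb. LHB1B2, another antenna protein, followed at 3266 ± 217 CPM per kb, and RBCS1A, a small subunit of the carbon-fixing enzyme Rubisco, at 3020 ± 209 CPM per kb. The fifth level was that of PYK10, a beta-glucosidase of root and hypocotyl ER bodies, with 5072, 4830.1 and 4855 CPM in the 3 libraries and 2724 ± 73.8 CPM per kb. Its binding partner PBP1 was also among the top 20, at 1584 CPM per kb.

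Several of the other leading genes act at the cell wall or in water transport. EXT3, a structural extensin, had 2190 ± 242 CPM per kb, and replicate 1 was its highest library at 4102 CPM, against 3462 and 3361 CPM. TIP1;2, a water channel of the vacuole membrane, had 2151 ± 160 CPM per kb. AT2G45180, annotated as a lipid-transfer family protein, had 2308 ± 265 CPM per kb, with replicate 1 again the highest at 1769 CPM and replicates 2 and 3 at 1429 and 1498 CPM. AIR1, first described as induced by auxin in root cultures, had 2679 ± 68.5 CPM per kb, and the growth-related TCTP had 2479 ± 78.7 CPM per kb. CAT3, a catalase, stood at 1953 CPM per kb and the gibberellin-regulated GASA1 at 1947 CPM per kb. A total of 15 gene models were among the top 20 both by CPM and by CPM per kb; HSC70-1, a chaperone, was at rank 3 by CPM with 3740 CPM and at rank 18 per kb with 1575 CPM per kb. None of the 100 highest models per kb shared more than 50% of its 50-base windows with the transcript of another gene. Such sharing was rare in general, at 2.06% of detected protein-coding genes, so this count of 0 does not set the highest models apart. CAB1 shared 22.0% of its windows and LHB1B2 17.3%. Reads that aligned equally well to 2 places were removed by the authors, and reads from stretches where 2 genes overlap cannot be assigned by strand, so the counts of such genes are incomplete or uncertain.

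**Figure D1:**
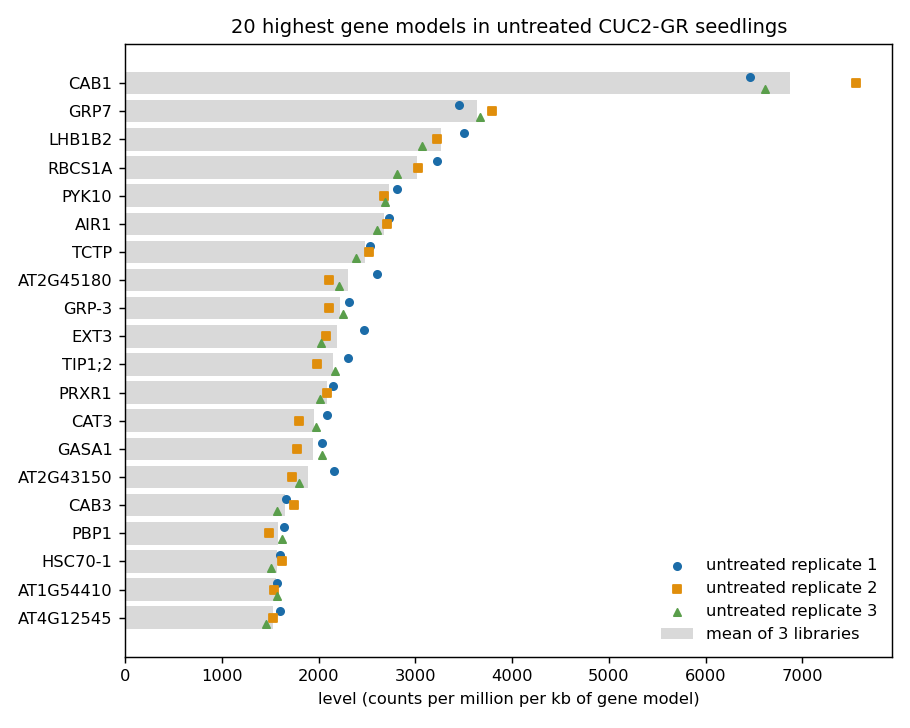
Levels of the 20 highest gene models per kb in the 3 untreated libraries, in CPM per kb of gene model. Bars are means and points are single libraries; CAB1 stands alone near 6875, and the remaining 19 lie between 1531 and 3637, with the points of each gene close to its mean.

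Genes of photosynthesis formed the most abundant group among those listed. The 68 nuclear genes of 6 lists (Rubisco small subunit, light-harvesting proteins, both photosystems, electron transport with ATP synthase, and the Calvin cycle with carbonic anhydrase) held 5.09%, 5.21% and 4.75% of all pairs, a mean of 5.02% ± 0.238 (SD, n = 3). All 68 were detected, and 26 of them were among the 100 highest models per kb. Replicate 3 had the lowest share. All 20 light-harvesting genes together held 2.58% of pairs, but the members differed widely. CAB1, LHB1B2 and CAB3 were highest, with CAB3 at 1657 CPM per kb, while LHCB4.3, a minor antenna isoform, had 3.59 CPM per kb and the photosystem I antenna isoforms LHCA5 and LHCA6 had 40.1 and 15.7 CPM per kb. Among Rubisco small subunit genes RBCS1A stood above RBCS3B (798 CPM per kb), RBCS2B (771) and RBCS1B (486), and in each of these 4 genes replicate 1 was the highest library and replicate 3 the lowest. RBCS1B had 449, 407 and 323 CPM in replicates 1, 2 and 3, a CV of 16.4%. These close relatives share part of their sequence, 21.4% of the windows of RBCS2B and 18.4% of those of RBCS3B, and their counts are uncertain to that extent.

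The 11 subunits of photosystem II had a median of 579.9 CPM per kb, from 148 for PSBO2 to 1411 for PSBR. The 12 subunits of photosystem I had a median of 579.9 CPM per kb as well, from 332 for PSAD2 to 1178 for PSAF. Isoform pairs were unequal: PSBO1, a subunit that stabilises the manganese cluster of the water-splitting complex, had 1143 CPM per kb against 148 for PSBO2, and plastocyanin PETE2 had 957 CPM per kb against 98.1 for PETE1. Enzymes of the Calvin cycle were lower, with a median of 147 CPM per kb, led by Rubisco activase RCA at 551 CPM per kb and the aldolase FBA2 at 251. Carbonic anhydrase CA1 was the lowest of these 14 genes at 29.2 CPM per kb, and its libraries differed more than those of any other gene of the 6 lists, with 52.8, 40.5 and 22.4 CPM in replicates 1, 2 and 3. Replicate 3 was the lowest for CA2 as well (140.3, 124 and 100.3 CPM). In chlorophyll synthesis PORB, the light-dependent protochlorophyllide reductase of green tissue, had 521 CPM per kb, against 41.5 for PORC and 4.11 for PORA, the form known from dark-grown seedlings. Photorespiration genes lay between 42.4 CPM per kb for GLDP1 and 168 for AT1G11860.

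Promoters of these genes were searched for short motifs, in the 250 bases upstream of the annotated gene start of 26711 protein-coding genes of TAIR10.1, on both strands. The G-box CACGTG, known as a binding site of light-signalling transcription factors, was in the promoters of 13 of the 68 photosynthesis genes (19.1%), against 6.58% of all promoters and 8% of those of the 100 highest genes. The 13 genes with a G-box had a median of 489 CPM per kb and the 55 without it 511. The I-box GATAAG was in 14 of 68 (20.6%), against 12.2% of all promoters and 20% of those of the 100 highest genes. The annotated start can lie away from the true one, and a match of letters is a description and not a binding site. The promoters of the 3 highest photosynthesis genes with a G-box are shown with every motif match in capitals, to give the setting of this element. They are LHCA4 (chr3:17495034-17495283, minus strand), LHCB4.1 (chr5:208616-208865, plus strand) and LHCB6 (chr1:5447881-5448130, minus strand), read 5′ to 3′ in the direction of the gene; LHCB6 also holds an I-box.
LHCA4: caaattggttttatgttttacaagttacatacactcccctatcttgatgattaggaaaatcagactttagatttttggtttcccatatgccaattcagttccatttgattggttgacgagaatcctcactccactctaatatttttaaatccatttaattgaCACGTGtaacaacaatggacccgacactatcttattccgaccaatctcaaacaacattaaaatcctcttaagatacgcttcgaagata
LHCB4.1: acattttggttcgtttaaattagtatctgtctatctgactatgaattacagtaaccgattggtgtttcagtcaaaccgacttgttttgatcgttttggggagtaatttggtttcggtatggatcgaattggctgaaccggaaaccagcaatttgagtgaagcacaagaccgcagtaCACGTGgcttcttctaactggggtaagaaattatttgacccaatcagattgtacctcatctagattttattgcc
LHCB6: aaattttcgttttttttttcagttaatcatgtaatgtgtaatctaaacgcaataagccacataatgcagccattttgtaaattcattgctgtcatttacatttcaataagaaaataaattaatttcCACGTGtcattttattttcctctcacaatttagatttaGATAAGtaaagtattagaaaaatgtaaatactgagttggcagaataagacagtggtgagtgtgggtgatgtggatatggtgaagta

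Ribosomal protein genes held nearly as large a share of the pairs as photosynthesis. The 317 genes whose product name says ribosomal protein and names no organelle held 4.92% ± 0.289 of pairs (SD, n = 3). Of these, 297 were detected, 163 were among the 1000 highest models per kb, and the median was 138 CPM per kb. The highest was AT5G20290, annotated to the S8e family of the small ribosomal subunit, at 775, 842 and 867 CPM and 857 ± 49.6 CPM per kb. Replicate 1 was its lowest library, opposite to the order in the Rubisco small subunit genes. Translation factors were also high: the elongation factor gene AT5G60390 had 1198 CPM per kb, the elongation factor LOS1 464 and the helicase EIF4A1 301. A further 3 elongation factor genes, AT1G07920, AT1G07930 and AT1G07940, share between 44.9% and 66.2% of their windows with another gene, and their levels of 147 to 250 CPM per kb may be too low for that reason.

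The promoters of ribosomal protein genes held 2 motifs more often than promoters in general. The site II element GGCCCA was in 151 of 317 (47.6%), against 13.9% of all promoters, and the telo-box AAACCCTA was in 53 (16.7%), against 4.44% of all and 0 of the 68 photosynthesis promoters. A total of 31 held both. Matches to site II lay at a median of 54 bases and matches to the telo-box at a median of 40 bases upstream of the annotated start. The ribosomal protein genes with site II had a median of 210 CPM per kb, and those without it 52.3. The choice by product name does not exclude every ribosomal protein of organelles, and the part of such genes in this difference was not tested. Over all detected protein-coding genes the share with site II was 9.73% in the lowest decile by level and 21.7% in the highest, and it was 5.58% in genes without any pair. The share with site II was 10.68% in the second decile and 15.82% in the third. From the third to the ninth decile it lay between 14.96% and 18.19%. Ribosomal protein genes were kept in the deciles, and their part in the share of the highest one was not tested. The telo-box did not follow the order of site II. It was in 3.56% of promoters in the lowest decile, 4.32% in the highest and 8.62% in genes without any pair. The promoters of AT5G20290 (chr5:6853107-6853356, minus strand) and of AT4G27090 (chr4:13595253-13595502, minus strand), a ribosomal protein gene at 757 CPM per kb, are given because the first holds site II in both orientations and the second holds both elements; capitals mark site II, the telo-box and, in the first, a match to the TATA box letters TATAAA on the other strand.
AT5G20290: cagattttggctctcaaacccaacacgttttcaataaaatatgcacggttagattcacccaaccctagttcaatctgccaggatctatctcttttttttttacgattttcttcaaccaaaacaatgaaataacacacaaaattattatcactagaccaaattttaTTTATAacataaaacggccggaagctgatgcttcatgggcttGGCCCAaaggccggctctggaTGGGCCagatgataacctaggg
AT4G27090: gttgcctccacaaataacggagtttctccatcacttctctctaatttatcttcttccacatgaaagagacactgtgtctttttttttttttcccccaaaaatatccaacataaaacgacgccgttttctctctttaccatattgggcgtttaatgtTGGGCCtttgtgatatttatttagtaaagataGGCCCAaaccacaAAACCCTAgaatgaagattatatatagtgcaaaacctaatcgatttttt

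Water channels were another large group. Of 21 aquaporin genes 18 were detected and 8 were among the 100 highest models per kb, and the list held 12538 ± 223 CPM in all. The tonoplast channels TIP1;2, TIP1;1 (1165 CPM per kb) and TIP2;1 (1142) led, followed by the plasma membrane channel PIP1B at 930.3 CPM per kb. The seed-type channels TIP3;1 and BETA-TIP had 2 pairs and 1 pair, each in a single library, and TIP5;1, known from pollen, had none. Wall-modifying and wall-building genes included XTH4 at 668 CPM per kb and the primary-wall cellulose synthases CESA3, CESA1 and CESA6 at 196, 154 and 127 CPM per kb. The secondary-wall cellulose synthases CESA4, CESA7 and CESA8 had 16.4, 10.9 and 9.54 CPM per kb.

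Most markers of the parts of a seedling were detected, and most of those of flowers, pollen and seeds were not. In the root endodermis CASP1, which organises the Casparian strip, had 84, 91.9 and 79.1 CPM and 99.4 CPM per kb, and all 8 endodermis markers were detected. The root hair expansins EXPA7 and EXPA18 had 35.1 and 32.4 CPM per kb, the root regulators SCR and SHR 15.3 and 11.1, and WOX5, which marks the few cells of the root organising centre, 1.02. Epidermal genes were abundant, with the lipid-transfer protein gene LTP1 at 662 CPM per kb and the regulator ATML1 at 30.7. Of the vascular markers, the phloem sucrose carrier SUC2 had 64 CPM per kb and the xylem protease XCP2 76.4. The stomatal regulators SPCH, MUTE and FAMA had 6.39, 1.66 and 7.17 CPM per kb. Markers of dividing cells reached from 4.55 CPM per kb for CYCB1;1 to 49.8 for CDKA1.

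Markers of the shoot apex other than CLV1 were below the median level of detected models or not detected. STM, the homeobox gene that maintains the shoot meristem, had 8.95, 11.4 and 9.83 CPM and 7.39 CPM per kb, and its relative KNAT1 had 8.92 CPM per kb. CLV1, a receptor kinase of the meristem, had 25.5 CPM per kb, above that median of 11.3. In contrast CLV3, the peptide expressed by a few stem cells, had 0, 1 and 1 pairs, and WUS, which is active in the organising centre, had none in any library. These last values are under the limit that 3 pairs set and do not show that the transcripts were absent. Among flower organ genes 4 of 10 were detected. SEP3 had 10.3, 12.5 and 13.4 CPM and 10.6 CPM per kb, close to the median of detected models and above STM. PI had 0.983 and AG 0.441 CPM per kb, and CRC had no pair. Of 10 pollen and anther genes 7 had no pair, ANX1 had 1.70 CPM per kb and AMS 0.245. None of the 6 embryo regulators was detected, and of 14 seed storage and late embryogenesis genes 2 were, the oleosin OLEO4 at 2.09 and the albumin SESA4 at 0.219 CPM per kb. Apart from SEP3, the markers of other tissues were low, and the markers did not go against the label of seedling tissue.

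**Figure D2:**
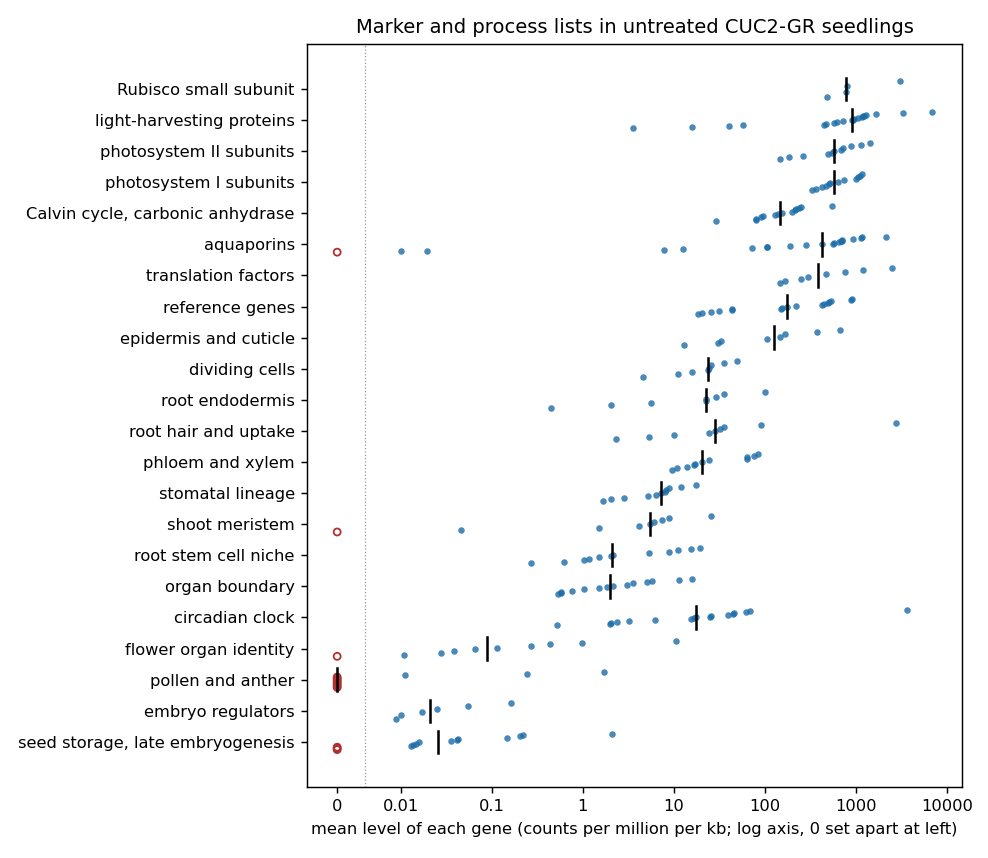
Mean level of every member of 22 lists in the untreated libraries, in CPM per kb on a log axis; open red circles are genes without any pair and black bars are list medians. Medians fall from 915 for light-harvesting proteins to 0 for pollen and anther genes, and PYK10 at 2724 and GRP7 at 3637 stand far above the rest of their lists.

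CUC2 had one of the highest transcript levels of the seedlings. It had 882, 829 and 836 CPM in replicates 1, 2 and 3, a mean of 849 ± 28.9 CPM (SD, n = 3) and a CV of 3.40%. The 95% intervals, 871 to 893 CPM in replicate 1 and 819 to 840 in replicate 2, did not overlap. Per kb its level was 734 ± 24.96 CPM, which placed it at rank 78 of all models, with rank 76, 82 and 80 in the single libraries. In the order of read pairs, by CPM, the 5 neighbours above it included POM1, PCAP1 and the dehydrin ERD14, and the 5 below it included RP1, a ribosomal protein gene, and the water channel PIP3. The means of these 10 genes ran from 820.2 to 868 CPM and their SDs from 16.5 to 89.9 CPM, so its rank among them is not fixed by these libraries. The count adds the transgene and the endogenous gene (chromosome 5, 21901704 to 21903854 of TAIR10.1, minus strand), and the files cannot separate them. No part of the CUC2 transcript was shared with another gene at the length of 50 bases.

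No other NAC gene came near that level. Of 108 NAC gene models 76 were detected, the median of all 108 was 2.07 CPM per kb, and CUC2 alone held 43.1% of all NAC pairs. The second, VNI2 (also NAC083), a partner and repressor of the vessel regulator VND7, had 127, 112 and 124 CPM and 110 CPM per kb, a level 6.69 times lower. NAC1, which acts in lateral root formation and is itself a target of miR164, had 58.4 CPM per kb, and ATAF2 had 39.0. CUC1 had 3.43, 2.49 and 2.96 CPM and CUC3 0.509, 0.701 and 0.564 CPM, so CUC2 was 242 times above CUC1 and 1371 times above CUC3 per kb. The intervals of CUC1 overlapped among its 3 libraries, from 1.94 to 4.16 CPM, as did those of CUC3, from 0.285 to 1.08 CPM. Of other miR164 targets ORE1 had 18.5, NAC079 9.69 and NAC100 2.01 CPM per kb. The root cap genes SMB, BRN1 and BRN2 had 1.52, 2.13 and 2.05 CPM per kb, and NST1 and NST3, of secondary walls, 0.135 and 0.0105. The gene models of the miR164 precursors had no pair (MIR164A and MIR164B) or 1 pair in replicate 2 (MIR164C), which in poly(A)-selected libraries of this kind says nothing of the mature microRNA.

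The 14 boundary genes were all detected but low, with a median of 1.997 CPM per kb and 59.9 ± 0.628 CPM in all. RAX2, a MYB factor of axillary meristems, was highest at 15.9 CPM per kb, with 15.3, 15.5 and 15.5 CPM, followed by LSH4 at 11.5 and BOP2 at 5.80. LSH3 had 3.52, LAS 1.02, BOP1 0.768 and RAX1 0.5705 CPM per kb. The lowest was CUC3. RAX2, RAX3 and LSH3 had CVs of 1.02%, 1.65% and 0.290%. Counting error alone would give median CVs of 10.9% at 30 to 100 pairs, 6.08% at 100 to 300 and 3.50% at 300 to 1000. CVs below these values do not show that the genes were steadier than others. BOP1, LOF1 and RAX1 had CVs over 25%, each with replicate 1 as the lowest library and at most 1.402 CPM. Such CVs were common at low counts. Of all models, 628 of 1454 with 10 to 30 pairs on average had one, and 286 of 2425 with 30 to 100 pairs. In the list of 36 NAC genes 3 of the 34 with at least 10 pairs on average had a CV over 25%, and NAP, known from leaf senescence, was the most variable at a level above 100 pairs, with 5.97, 2.07 and 3.98 CPM.

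**Figure D3:**
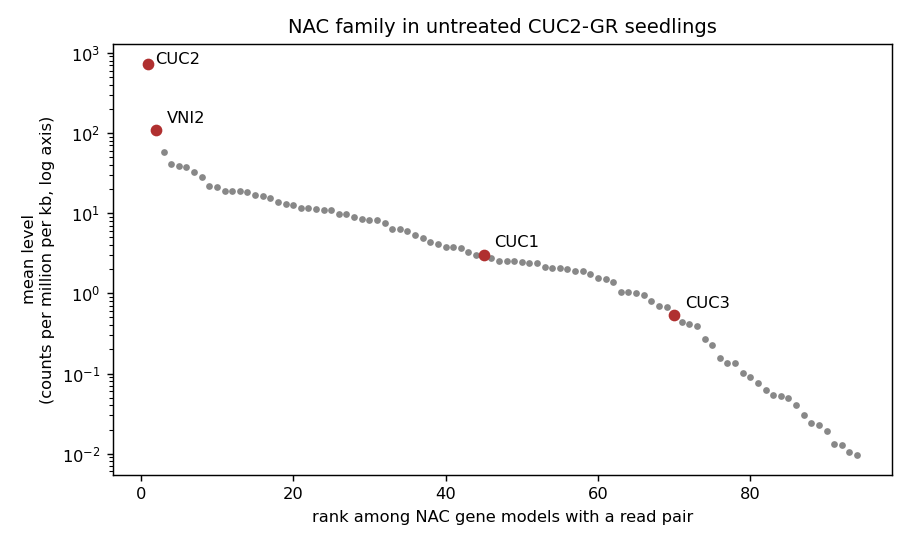
Mean level of the NAC gene models with at least 1 read pair, in order of level, in CPM per kb on a log axis. CUC2 at 734 lies 6.69 times above VNI2 at 110, while CUC1 at 3.04 and CUC3 at 0.536 lie in the middle and lower part of the family.

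The clock genes differed widely in level. The evening-phased genes GI, TOC1, LUX and ELF4 had 44.6, 39.3, 62.6 and 68.8 CPM per kb, and PRR7 and PRR5, which are active through the day, had 46.0 and 25.5. The morning-phased genes CCA1 and LHY had 1.99 and 0.514 CPM per kb, PRR9 had 3.24 and RVE8 2.34. Phase and level did not go together throughout, since the morning-phased LNK1 and LNK2 had 17.3 and 15.6 CPM per kb and the evening-phased BOA 6.13. LHY had 0.502, 0.596 and 0.443 CPM per kb in replicates 1, 2 and 3, where TOC1 had 39.7, 42.2 and 35.9. The hour of harvest is not given in the labels. Of flowering time genes the repressors SVP, FLM and FLC had 43.0, 28.4 and 8.46 CPM per kb, FT, the mobile flowering signal, had 0.595, and its relative TSF had no pair.

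Metabolic and nutrient genes gave further traits of these seedlings. All 23 glucosinolate and myrosinase genes were detected, with a median of 78.6 CPM per kb, from the myrosinase TGG1 at 352 to the regulator MYB122 at 1.36. Transcripts of nitrate uptake and reduction were high, with the nitrate reductase genes NIA2 and NIA1 at 240 and 154 CPM per kb and the nitrate transporter gene NRT1.1 at 219. Genes known to rise in phosphate starvation ran from 0.171 CPM per kb for the RNA IPS1 to 7.14 for the regulator SPX1, 9.33 for AT4, a relative of IPS1, and 24.7 for the sulfolipid synthase SQD2. Of the enzymes that use up seed reserves, the peroxisomal thiolase PKT3 had 155 CPM per kb and PCK1 122, but the glyoxylate cycle enzymes ICL and MLS had 1.14 and 0.895.

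Stress genes were uneven. The dehydrins ERD14 and COR47 had 844 and 501 CPM per kb, and ERD10, another dehydrin, had 156. The list of 14 cold and abscisic acid genes had a median of 1.90 CPM per kb and 3 members among the 1000 highest models. COR6.6 had 44.7 and RD29A 10.3 CPM per kb, while COR15A had 0.691, RAB18 0.213 and RD29B 0.0490. Of 10 genes of low oxygen LBD41, a transcription factor, had 170, 169 and 186 CPM and 127 CPM per kb, the haemoglobin HB1 77.5, and ADH1, alcohol dehydrogenase, 26.3. Of the defence genes PR4 had 343 CPM per kb and LOX2, a lipoxygenase of jasmonate synthesis, 66.3, whereas PR1, a marker of salicylic acid signalling, had 0.108 and THI2.1 no pair. The heat-induced HSP70, HSP101 and HSP17.4 had 46.6, 9.87 and 1.17 CPM per kb. Genes assumed constant in expression assays varied little: all 17 were detected, and their median CV was 2.98%. Over all models with 1000 to 3000 pairs on average the median CV was 4.14%, and counting error alone would give 2.12%. PP2AA3 had 88.8, 89.5 and 88.5 CPM, a CV of 0.573%, whereas UBQ5 and GAPC1 had CVs of 6.09% and 5.99%.

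By class of gene model, protein-coding genes held 99.4% of the pairs, and 21058 of 26712 (78.8%) were detected. Detected shares were 71.0% for 224 long non-coding RNAs, 21.7% for 926 transcribed pseudogenes, 5.70% for 3911 other pseudogenes, 10.7% for 178 microRNA genes and 0.161% for 623 tRNA genes. Plastid gene models together had 93.4, 66.6 and 59.6 CPM, and mitochondrial ones 29.1, 21.8 and 22.8 CPM; transcripts of organelles mostly lack the poly(A) tail used for selection. Large families, taken by words in the product name and so not complete, differed in how much of them was seen. All 22 genes whose product name begins with tubulin were detected, a set that leaves out TUB6. Of 309 genes named for pentatricopeptide repeats, mostly RNA-processing proteins of organelles, 93.5% were detected. The shares were 32.0% of 629 genes with F-box and 15.9% of 113 with defensin in the name.

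Gene structure went with level. Among detected protein-coding genes, median length of the gene model was 1428 bases in the lowest decile by CPM per kb, 1637 in the fifth and 1121 in the highest. Single-exon genes made up 27.3% of the lowest decile and 11.97% of the highest, against 39.3% of the genes without any pair. Length is itself the divisor of this level, and its part in these shares was not tested.

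The 3 libraries were close to each other for most genes. Among 21298 models with at least 10 pairs on average the median CV was 6.10%, and 1070 (5.02%) had a CV over 25%. The CV fell with depth, from a median of 22.2% at 10 to 30 pairs to 4.14% at 1000 to 3000 pairs, and was 4.73% above 10000 pairs. Counting error alone would give medians of 19.6%, 2.12% and 0.680% in those 3 ranges, so the spread lay near the counting level for weakly expressed genes and well above it for strong ones. The biological coefficient of variation, the part of the spread beyond counting as estimated by edgeR over 20919 models, was 6.04%. It was 4.89% without replicate 1, 6.72% without replicate 2 and 6.35% without replicate 3.

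**Figure D4:**
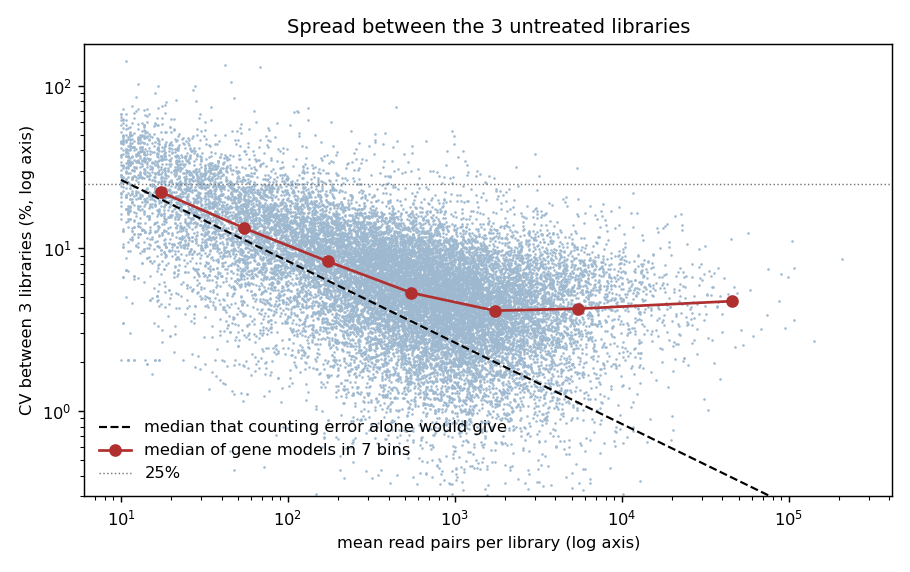
CV between the 3 untreated libraries against mean read pairs per library, both on log axes; each dot is a gene model with a mean of at least 10 pairs, red points are medians of 7 ranges of level, and the dashed line is the median CV that counting error alone would give. The medians leave the dashed line above about 100 pairs and level off between 4.14% and 4.73%, and only few dots lie above the dotted line at 25%.

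Among 17419 models with at least 100 pairs on average, 156 (0.896%) had a CV over 25%. In 92 of them replicate 1 was the library apart, as the highest in 73 and as the lowest in 19; replicate 2 was apart in 29 and replicate 3 in 35. These genes were grouped after their values were seen, and what moved with them is given without a cause, since no label separates the libraries.

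Replicate 1 was high for genes known to respond rapidly to wounding, touch or microbial elicitors. The zinc finger gene ZAT10 had 23.4, 12.9 and 9.94 CPM in replicates 1, 2 and 3. The ethylene response factors ERF104 and ERF5 had 50.9, 27.4 and 23.4 CPM and 28.4, 15.9 and 13.2 CPM. CYP81F2, of indole glucosinolate synthesis, had 21.4, 13.7 and 9.16 CPM, and the touch gene XTH22 143, 105 and 82.1 CPM. In each of these genes replicate 3 was the lowest. ZAT10 and XTH22 belong to the touch and early wounding list, whereas ERF104, ERF5 and CYP81F2 do not. Over the 8 genes of that list the median log2 ratio of a library to the mean of the other 2 was 0.39 for replicate 1. It was -0.10 for replicate 2 and -0.44 for replicate 3. Not every gene of the list kept that order: WRKY40 had 10.2, 9.22 and 9.51 CPM and JAZ1 62.5, 74.96 and 71.4 CPM. The plastid model ATCG00020 was also highest in replicate 1, at 28.2, 9.68 and 7.96 CPM. Genes lowest in replicate 1 included FTM1, annotated as a stearoyl-ACP desaturase, with 59.9, 136 and 121 CPM, and chalcone synthase CHS, the entry to flavonoid synthesis, with 7.90, 15.1 and 16.3 CPM.

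Replicate 2 was low for several genes of iron uptake by the root. IRT1, the iron transporter of the root surface, had 48.9, 14.4 and 36.4 CPM, and its 95% intervals (46.5 to 51.5, 13.02 to 15.8 and 34.2 to 38.7 CPM) did not overlap. The ferric reductase FRO2 had 50.3, 16.8 and 35.2 CPM, IRT2 9.63, 5.01 and 8.46 CPM and the nicotianamine synthase NAS2 6.24, 3.40 and 5.04 CPM. NAS4, a related synthase, went the other way with 6.72, 11.1 and 7.68 CPM. Of their regulators FRU, the main activator of IRT1 and FRO2, had 23.7, 18.4 and 19.1 CPM, BHLH39 5.97, 5.08 and 4.72 CPM and BHLH101 1.49, 0.736 and 0.810 CPM, so only the last had a CV over 25%. IRT1, FRO2 and NAS4 belong to the iron list, whereas IRT2 and NAS2 do not. Over the 9 genes of that list the median log2 ratio of a library to the mean of the other 2 was 0.28 for replicate 1. It was -0.16 for replicate 2 and -0.14 for replicate 3, so the list as a whole did not set replicate 2 apart from replicate 3. Of other root genes EXPA7 had 38.7, 34.7 and 35.4 CPM, and the 8 root endodermis genes had a median log2 ratio of -0.033 for replicate 1, 0.16 for replicate 2 and -0.14 for replicate 3.

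Replicate 3 was high for single genes known from sulfur limitation or jasmonate, picked after their values were seen. The list of nitrogen, phosphate and sulfur holds LSU1, and that of defence and jasmonate outputs holds LOX2 and CORI3. These lists did not show it, with a median log2 ratio in replicate 3 of -0.0091 and 0.070. LSU3, NIT2 and JAZ10 are in neither list, so these ratios do not cover them. LSU1, a small protein induced by low sulfur, had 2.34, 2.21 and 6.80 CPM and LSU3 7.19, 5.64 and 9.34 CPM. The nitrilase gene NIT2, grouped with them by its values alone, had 2.34, 2.35 and 7.12 CPM. The sulfate transporter SULTR1;2, in contrast, had 129.6, 102 and 114 CPM. Of jasmonate-related genes LOX2 had 147, 162 and 255 CPM, CORI3 5.50, 6.07 and 13.2 CPM and the repressor gene JAZ10 3.97, 5.61 and 7.40 CPM, whereas VSP1, another output of the hormone, had 7.16, 7.64 and 7.82 CPM. FRK1, a receptor kinase gene induced by flagellin, was lowest in replicate 3 at 12.1, 9.33 and 4.97 CPM.

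**Figure D5:**
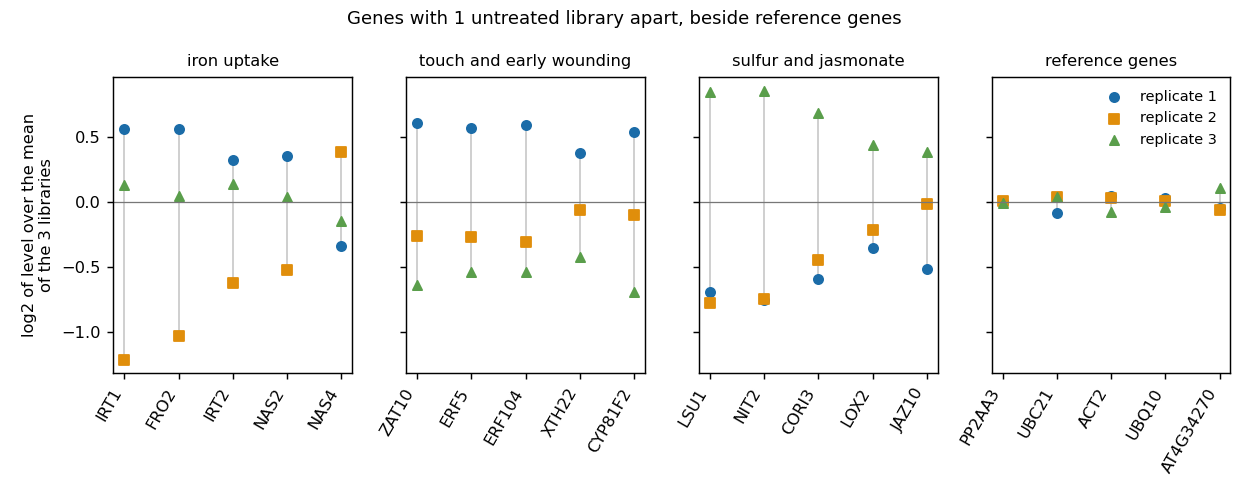
Level of single genes in each untreated library as log2 of the ratio to the mean of the 3 libraries, for 3 groups chosen after their values were seen and for 5 reference genes. Replicate 2 is lowest for 4 of the 5 genes shown for iron, and replicate 1 is highest for all 5 shown for touch and wounding. Replicate 3 is highest for all 5 shown for sulfur and jasmonate, where NIT2 was grouped by its values alone. The reference genes stay close to 0. IRT2, NAS2, ERF5, ERF104, CYP81F2, NIT2 and JAZ10 are not members of the gene lists whose ratios are given. The touch list genes JAZ1 and WRKY40, which did not keep the order, are not shown.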

How the data were processed

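RNA-seq read pairs of the 3 untreated libraries were analysed. Per the submitters' processing notes, TAIR10 was the genome build and Bowtie2 the aligner, and the deposited tables hold raw counts of read pairs and of single reads per gene model with the model's length in bases, per the file headers. The headers name sam2pkm, a paired analysis in which singletons were treated as unmapped, no limit on insert size, and removal of reads whose best and second-best alignment scores were equal (2.09% to 2.12% of mapped reads).

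From these counts, CPM was computed with the total counted pairs of each library, and CPM per kb with the deposited length. SDs and CVs are over 3 libraries. The biological coefficient of variation is the square root of the common dispersion in edgeR 4.0.16 (R 4.3.3) after its filter at 10 counts. DESeq2 1.42.0 gave alternative size factors. Python 3.11.15 with pandas 2.3.3 and scipy 1.17.1 did the rest. No groups were compared and no hypothesis was tested. Gene names, positions and promoters came from RefSeq's TAIR10.1 annotation, to which 32835 of 33602 models matched by locus; 36.8% of the transcripts read there had exactly the deposited length.

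The group and the 40 gene lists were chosen with earlier results of these data known. Named are the 20 highest models by CPM and per kb, the 3 highest, the lowest and the pairless members of each list, all NAC, miR164, boundary and reference genes, the 5 neighbours of CUC2 on each side, and the 20 models with the largest CV above 100 pairs; the report takes a selection of these. Other genes and list members were picked after their values were seen.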

Additional observations from a re-analysis of the deposited data

Results flagged for a closer look

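A signal outside the read-pair counts was seen for 2 gene models, which had no pair in any untreated library but more than 3 single reads in each. The plastid model ATCG00450 had 8, 5 and 5 single reads in replicates 1, 2 and 3, and AT1G28465 had 5, 7 and 5. The cause was not tested.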

How the results depend on the processing

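Detected models (19581 to 26193), the share of the 10 most abundant models, the models that hold 50% of pairs, the share of photosynthesis and the rank of CUC2 moved by less than 1 SD between libraries, or 1.5 times for counts of models, under every alternative tried, which were leaving out each library, counting single reads, other limits for detection, and leaving out organelle and rRNA models. A share or level that is a mean of 3 libraries always moves by less than 1 SD when 1 library is left out. For such values that check could not fail and says nothing of their stability. Counting single reads put CUC2 at 878 CPM in place of 849, and TMM or DESeq2 scaling gave 849. The median CV of 6.10% was 7.604% with all models above 0, 5.26% from 100 pairs on, and 4.59% to 5.28% over 2 libraries. A CV over 2 libraries has a lower median than one over 3 at an equal spread. The fall alone therefore does not show a dependence on the library left out. The biological coefficient of variation ran from 4.89% to 6.72% when a library was left out. Of 438 detected named genes, 412 kept their level within 1 SD with single reads. ESB1, SPL3 and the small nuclear RNA U2.3 moved by over 1.5 times, from 0.683 to 0.357, 3.69 to 2.21 and 4.08 to 2.29 CPM, and 100%, 90.5% and 75.1% of their windows are shared with other genes. Without replicate 1, ATCG00020 fell from 15.3 to 8.82 CPM, AT1G72910 from 4.52 to 2.69, AT1G72920 from 3.97 to 2.42 and AT3G29000 from 4.52 to 2.95; without replicate 3, NIT2 fell from 3.94 to 2.34, LSU1 from 3.78 to 2.27, PYD4 from 6.32 to 4.15 and FEZ from 0.348 to 0.223 CPM. No paired analysis was possible because the levels come from no test; the comparison with the treated libraries, which share the replicate numbers, was outside this description. Genes under about 0.1 CPM rest on 3 pairs or fewer in a library.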
